A study of Talpa occidentalis with 6 samples.

Results

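Stretches of mouse chromatin that were open in the fetal ovary, with no open chromatin over them in the fetal testis, are described here. Open chromatin was mapped by ATAC-seq, in which a transposase cuts accessible DNA and leaves sequencing adapters there, and the genome was then divided into 5 numbered chromatin states in bins of 200 bp. The open state of each gonad was taken as the state that covered the least autosomal sequence, which was state 1 in both. An open ovary segment is an unbroken run of state 1 bins on an autosome. Of 17575 such segments, 6218 had no state 1 bin in the testis, which is 35.4% (Wilson 95% interval 34.7% to 36.1%), and these are called ovary-only segments, a name that refers to these 2 files alone. The other 11357 overlapped open testis chromatin and are called shared. They were chosen by the measured states of these 2 segmentations, so their absence from the open testis state is how they were found and not a result.

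The study set gonads of the Iberian mole beside those of the mouse, and the mouse gonads were dissociated whole, from E13.5 embryos, per the labels' protocols. There is 1 segmentation of the ovary and 1 of the testis. The number of mouse samples behind each, their genotype and strain, and the sequencing depth are not given in the sources used here, so no spread between animals can be given and no difference between the gonads could be tested. Intervals below cover counting error along the genome only. The comparison takes a state number to mean the same in both gonads. In tissue dissociated whole, a region open in fewer cells and a region less open in each cell cannot be told apart.

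At this stage the gonads of the sexes have only recently diverged. The fetal ovary holds pre-granulosa cells, the supporting cells in which FOXL2 and WNT signalling act, and germ cells that are entering meiosis. The fetal testis holds Sertoli cells, in which SOX9 acts, grouped into cords around germ cells that do not enter meiosis, and steroid-producing Leydig cells between the cords. Open chromatin marks promoters, enhancers and other regulatory DNA, and elements away from promoters are those that most often differ between cell types. No mouse gene annotation or genome was used here, so segments are given by position, on the mouse build mm9, and are not assigned to genes.

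The colours of the files matched the choice of state 1. State 1 was drawn in red (227, 26 and 28 for red, green and blue) in both gonads, state 2 in pale orange, states 3 and 4 in greys and state 5 in white. State 1 covered 9.69 Mb of the autosomes in the ovary, or 0.392%, and 12.6 Mb in the testis, or 0.510%. State 2 covered 14.5% in the ovary and 16.9% in the testis, and state 3 was the commonest, with 73.1% and 70.9%. States 4 and 5 covered 5.23% and 6.79% in the ovary and 5.05% and 6.58% in the testis. The states formed a series: 97.9% of autosomal state boundaries in the ovary and 98.1% in the testis joined states with neighbouring numbers. State 1 met state 2 at 99.2% of its boundaries in the ovary and at 99.6% in the testis. The sex chromosomes matched the labelled gonads: the Y chromosome held 0 open ovary segments and 14 open testis segments. State 4 covered 73.4% of the X chromosome in the testis and 11.1% in the ovary.

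Ovary-only segments were mostly short. Of the 6218, 4986 were 1 bin (200 bp) long, or 80.2% (79.2% to 81.2%), 887 were 2 bins long and 345 (5.55%) were 3 bins or more. Their median length was 200 bp and the longest spanned 3800 bp. Shared segments had a median of 600 bp, and 62.1% of them were 3 bins or more. Together the ovary-only segments covered 1.64 Mb and the shared segments 8.04 Mb. A long segment has more bins that could be open in the testis, so the rule itself favours short ones.

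The share of open ovary segments that were ovary-only fell steeply with length. It was 76.1% of the 6551 segments of 200 bp (75.1% to 77.1%), 24.5% of the 3624 of 400 bp, 6.98% of the 2781 of 600 bp and 2.89% of the 1971 of 800 bp. Of the 2648 segments of 1000 bp or more, 94 were ovary-only, or 3.55% (2.91% to 4.32%). The same rule turned round gave 5511 of 16699 open testis segments with no open ovary bin, or 33.0%. These testis-only segments were longer, with a median of 400 bp. The difference in length was not particular to them. Open testis segments that overlapped open ovary chromatin had a median of 800 bp, against 600 bp for shared ovary segments. Segments of 200 bp numbered 1850 of 16699 open testis segments and 6551 of 17575 open ovary segments. The order of the counts depended on the shortest segments: with segments of at least 400 bp there were 1232 ovary-only and 4127 testis-only segments. At 400 bp, 59.5% of open testis segments were testis-only, and at 600 bp 32.6% were, against 24.5% and 6.98% for the ovary. At 200 bp the shares were 76.1% in the ovary and 74.8% in the testis, with overlapping intervals.

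**Figure D1:**
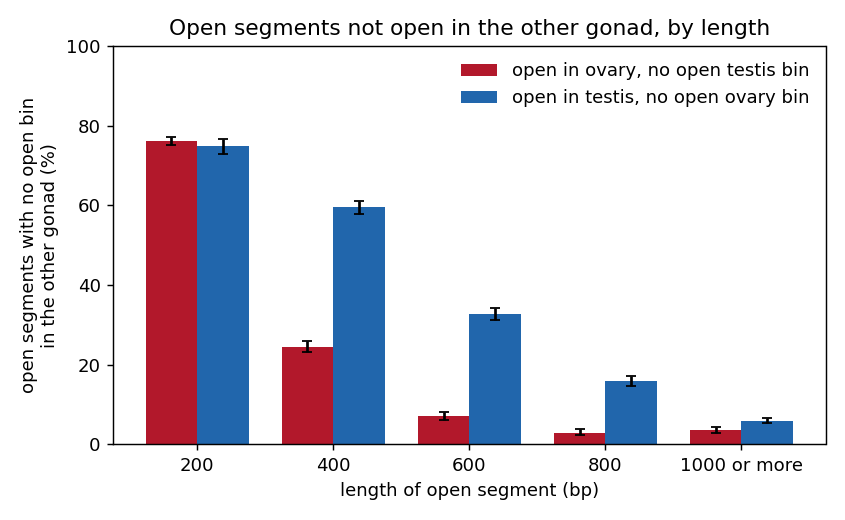
Percent of open segments with no open bin in the other gonad (vertical axis) by segment length in bp (horizontal axis), for open ovary segments (red) and open testis segments (blue), with Wilson 95% intervals as bars. Both start near 75% at 200 bp; the ovary drops to 24.5% at 400 bp and the testis to 59.5%.

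In the testis, most ovary-only segments lay in state 2, the step next to open. Of the 6218, 4368 were wholly in testis state 2, or 70.2% (69.1% to 71.4%), and 1830 wholly in state 3, the commonest state of the genome, or 29.4% (28.3% to 30.6%). A further 14 were wholly in state 4 and 6 mixed states 2 and 3. None lay in testis state 5: 0 of 6218 allows a share of up to 0.0482% (3 counts). By length, 77.0% of the 8223 ovary-only bins were testis state 2, 22.9% state 3 and 0.170% state 4. State 2 made up 16.9% of all autosomal testis bins, but 68.5% of testis bins 200 bp from the edges of ovary-only segments. Of the testis-only segments, 86.9% were wholly in ovary state 2 and 11.3% wholly in state 3.

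The excess of state 3 among ovary-only over testis-only segments held only for segments of 200 bp. Without a bin of state 2 in the other gonad were 29.7% of all ovary-only and 11.6% of all testis-only segments. Among segments of 200 bp these shares were 36.1% (34.8% to 37.4%) and 17.3% (15.4% to 19.4%). Among segments of 400 bp the order turned, with 4.85% (3.62% to 6.47%) of ovary-only and 12.9% (11.5% to 14.3%) of testis-only segments. Among those of 600 bp or more it was 1 of 345 ovary-only segments, or 0.290%, and 111 of 1886 testis-only segments, or 5.89%.

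**Figure D2:**
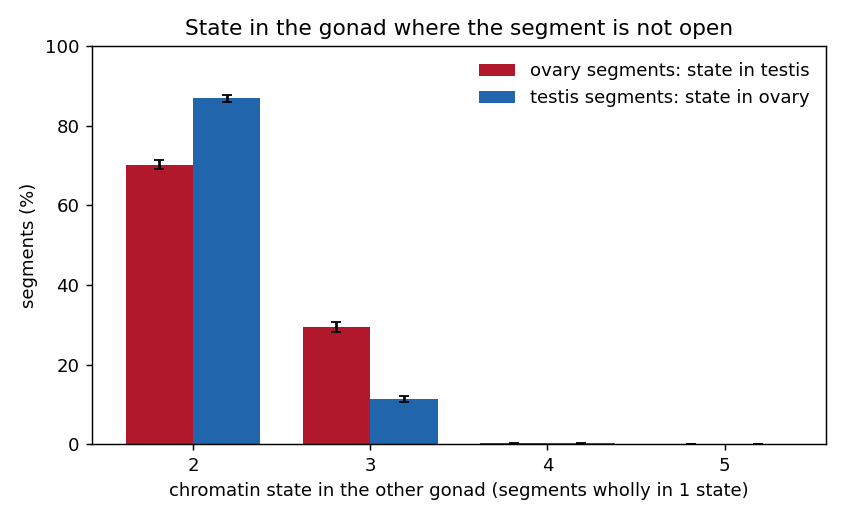
Percent of segments (vertical axis) wholly in state 2, 3, 4 or 5 of the gonad in which they are not open (horizontal axis), for ovary-only segments in the testis (red) and testis-only segments in the ovary (blue), with Wilson 95% intervals as bars. State 3 holds 29.4% of the ovary-only and 11.3% of the testis-only segments, and state 5 holds none of either.

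Some loss of openness in the testis also lay inside shared segments. Of 48448 ovary state 1 bins, 11528 were not state 1 in the testis, or 23.8%. Ovary-only segments held 8223 of these bins, or 71.3%, and shared segments the other 3305, all of them in testis state 2. At the border of the rule, 114 ovary-only segments directly abutted an open testis bin, and 1898 shared segments overlapped open testis chromatin by exactly 1 bin, of which 1565 were themselves 1 bin long.

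Ovary-only segments lay at varied distances from open testis chromatin, which by the rule does not overlap them. The median distance to the nearest open testis bin was 23800 bp, with quartiles of 5400 and 77800 bp. For 676 segments it was at most 1 kb, or 10.9%, and for 1251 it was over 100 kb, or 20.1%. Testis-only segments lay farther from open ovary bins, with a median of 35000 bp. Of these, 5.33% were at most 1 kb and 23.9% over 100 kb away. The farthest ovary-only segment, on chromosome 17 at 61457001 to 61457200, lay 1774400 bp from any open testis bin, in testis state 3. A testis-only segment lay within 1 kb of 192 ovary-only segments, or 3.09%. The same share for all open ovary segments is not given here, so this value has no comparison.

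States 1 and 2 were more common in the ovary than in the testis up to 1600 bp from ovary-only segments, and less common farther out. At 200 bp from the segment edge, 98.4% of ovary bins and 69.4% of testis bins were in state 1 or 2. At 1000 bp these shares were 68.0% and 60.3%, and at 1600 bp 55.9% and 55.3%. Beyond that the testis had the larger share, as it did over the genome, with 53.0% against 51.3% in the ovary at 2000 bp, 43.5% against 38.6% at 5000 bp and 39.3% against 35.2% at 10000 bp. Beside shared segments the testis had the larger share from 400 bp on. Near ovary-only segments, an ovary excess comes with the choice of segments open in the ovary and not in the testis. Beside testis-only segments the order was reversed, with 99.7% of testis bins and 85.0% of ovary bins in state 1 or 2 at 200 bp.

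**Figure D3:**
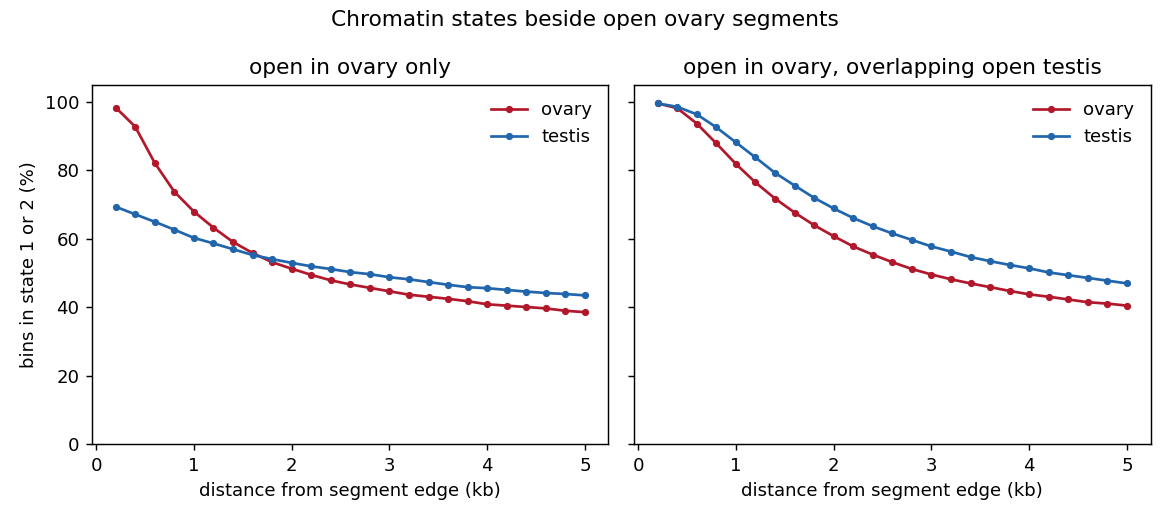
Percent of bins in state 1 or 2 (vertical axis) against distance from the segment edge in kb (horizontal axis), for ovary-only segments (left) and shared segments (right), in the ovary (red) and testis (blue). At ovary-only segments the ovary lies above the testis up to 1.6 kb and below it from 1.8 kb.

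Runs of states 1 and 2 give the wider block in which a segment lies. The ovary block around an ovary-only segment had a median length of 5000 bp, against 6800 bp around a shared segment. In 63.8% of cases (3964 segments) the ovary-only segment was the sole open stretch of its block and the block held no open testis bin. In a further 6.93% the block held other open ovary bins and again no open testis bin, and in 29.3% (1823 segments) it held an open testis bin. The 4374 segments with a testis state 2 bin lay in blocks with a median of 7600 bp, of which a median of 95.9% was also state 1 or 2 in the testis. The 1844 segments in testis state 3 or 4 lay in shorter blocks, with a median of 2000 bp and a median of 0% in testis states 1 and 2. These 2 groups were split by testis state at the segment, which is part of the block. Some difference in the testis states of their blocks therefore comes with the split.

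For 1343 ovary-only segments, or 21.6% (20.6% to 22.6%), the whole ovary block was in state 3 or beyond in the testis. The same held for 8.78% of testis-only segments (8.06% to 9.56%). This order too held only for segments of 200 bp, with 26.3% against 12.9%, and turned at 400 bp, with 3.27% of ovary-only and 10.1% of testis-only segments, and at 600 bp or more, with 0.290% and 4.19%. The 1336 distinct blocks of this kind had a median length of 1600 bp. The longest 3, named after their values were seen, held 1 ovary-only segment each. They spanned 14000 bp on chromosome 14 at 64362401 to 64376400, 11800 bp on chromosome 12 at 113579001 to 113590800, and 10200 bp on chromosome 1 at 136926601 to 136936800. The only ovary-only segment of 600 bp with no testis state 2 bin lay on chromosome 5 at 36747801 to 36748400, in a block of 4600 bp that was wholly state 3 or beyond in the testis. The nearest open testis bin was 6800 bp away.

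The 14 segments in testis state 4 were all 200 bp long. In 7 of them the ovary was in state 4 or 5 on both sides, so a lone open bin met these states with no bin of state 2 or 3 between. In 4 it was so on 1 side, and in 3 the ovary had state 2 on both sides. The last 3 included segments on chromosome 4 at 9094201 to 9094400 and on chromosome 12 at 29841801 to 29842000, in ovary blocks of 800 and 1400 bp. Segments with state 4 or 5 on both sides included those on chromosome 4 at 39806801 to 39807000, chromosome 6 at 47603001 to 47603200, chromosome 7 at 16037601 to 16037800 and chromosome 14 at 7207801 to 7208000. The segments on chromosome 5 at 94122201 to 94122400, chromosome 7 at 10541801 to 10542000, chromosome 8 at 104323001 to 104323200 and chromosome 13 at 65156401 to 65156600 had it on 1 side. For 9 of the 14 the nearest open testis bin was over 100 kb away. Over all ovary-only segments, 2.67% (2.30% to 3.10%) touched ovary state 4 or 5, against 0.740% (0.598% to 0.915%) of shared segments.

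The 10 longest ovary-only segments were all in testis state 2, and 7 of them had an open testis bin within 2000 bp. Of the 10, 5 lay in a single block on chromosome 13. The longest of all, 3800 bp at 12926001 to 12929800, had open testis chromatin 400 bp away. Others of that block spanned 3000 bp at 13010801 to 13013800, 2800 bp at 12993801 to 12996600, and 2200 bp each at 12923201 to 12925400 and 13001201 to 13003400, the last directly abutting an open testis bin. A pair on chromosome 16, 2800 bp at 3263201 to 3266000 and 2400 bp at 3266801 to 3269200, lay 8200 and 11800 bp from open testis chromatin in a shared ovary block of 53200 bp. Both on chromosome 4 were 2400 bp long, at 145025201 to 145027600 and 145679201 to 145681600. The last, on chromosome 8 at 73654201 to 73657200, spanned 3000 bp in a compact ovary block of 7200 bp, of which 58.3% was state 1 or 2 in the testis, with open testis chromatin 14200 bp away.

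Ovary-only segments were found on every autosome, at 1.91 per Mb on chromosome 16 to 3.25 per Mb on chromosome 4. As a share of open ovary segments they were fewest on chromosome 11, with 343 of 1117 or 30.7% (28.1% to 33.5%), and most on chromosome 14, with 344 of 772 or 44.6% (41.1% to 48.1%). The interval lay above the genome-wide 35.4% on 3 chromosomes and below it on 3. These intervals take segments as independent, although some lay in clusters, so they are too narrow and these counts are no test. Without 1 Mb windows that held 15 or more ovary-only segments, chromosome 14 stayed highest with 41.3%, and chromosome 4 dropped from 38.9% to 34.1%.

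**Figure D4:**
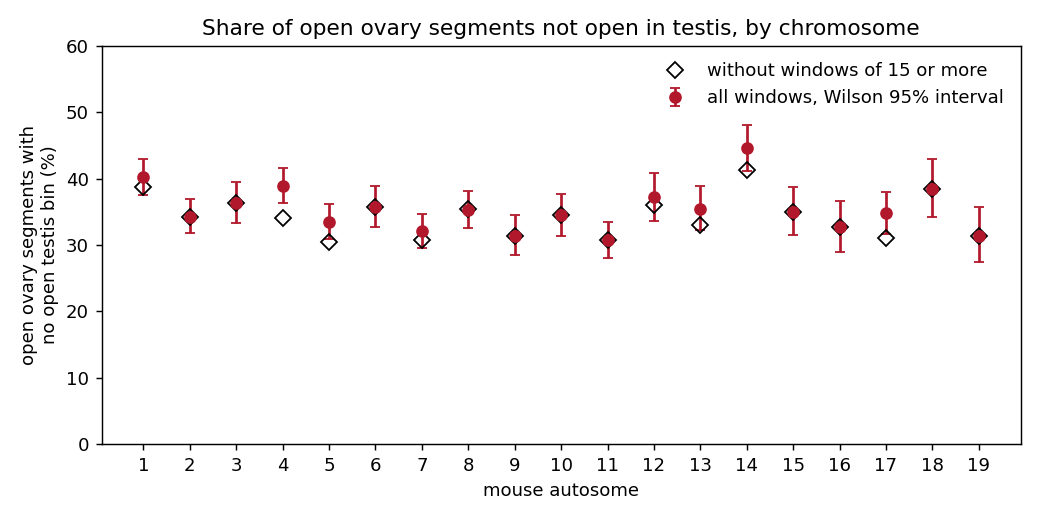
Percent of open ovary segments with no open testis bin (vertical axis) on each mouse autosome (horizontal axis), with Wilson 95% intervals (red), and the same without 1 Mb windows of 15 or more such segments (black diamonds). Chromosome 14 is highest with 44.6% and chromosome 11 among the lowest with 30.7%.

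Ovary-only segments were spread over most 1 Mb windows, with a small number of dense clusters. The median gap between neighbours was 168400 bp. Within 100 kb of another lay 57.1% of ovary-only segments, 51.7% of testis-only segments and 77.8% of the more numerous shared segments. Within 10 kb these shares were 20.6%, 12.3% and 23.2%. Of 2482 autosomal windows of 1 Mb, 579 held none and the median window held 2. In 23 windows there were 15 or more, a limit chosen after the counts were seen, and these held 625 segments, or 10.1% of all. No window held 15 or more testis-only segments, the largest count being 14. The 23 windows lay on 9 chromosomes, 4 each on chromosomes 5, 8 and 17 and 3 each on chromosomes 1 and 14.

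Segments of the dense windows differed from those of all other windows in length and in testis state. The other windows also held some clustered segments, such as part of the chromosome 13 block named above. Of the 625, 20.6% (17.7% to 24.0%) were 3 bins or longer, against 3.86% (3.39% to 4.40%) of the 5593 elsewhere. Of the 94 ovary-only segments of 1000 bp or more, 53 lay in these windows. In testis state 3 or 4 were 8.96% of the segments in dense windows and 32.0% of those in other windows. Over all ovary-only segments this share fell with length, and the 2 values were not split by length. Ovary-only segments made up 53.4% of open ovary segments in these windows and 34.1% elsewhere, a difference that choosing windows by their count brings with it. By the same choice, the ovary held more open sequence than the testis in 19 of the 23 windows. States 4 and 5 together covered 31.3% of the dense windows in the ovary and 30.8% in the testis, against 11.8% and 11.5% of all other windows. Their part in these counts was not tested.

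**Figure D5:**
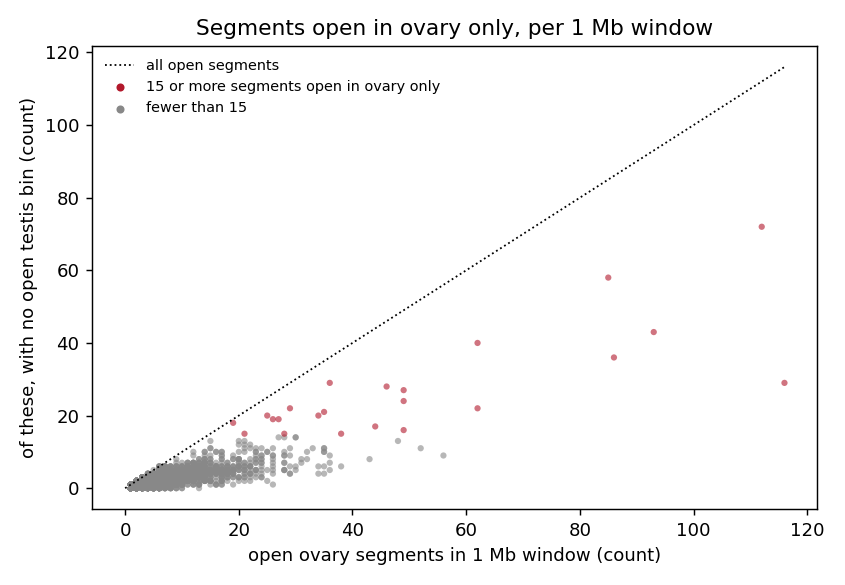
Ovary-only segments (vertical axis, count) against all open ovary segments (horizontal axis, count) in each autosomal 1 Mb window with at least 1 open ovary segment, where red points are windows with 15 or more ovary-only segments and the dotted line is where all open segments would be ovary-only. The highest point is a window of chromosome 4 with 72 of 112.

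The 5 windows with most ovary-only segments were on chromosomes 4, 1, 13 and 5. On chromosome 4, the window from 146000001 to 147000000 held 72 among 112 open ovary segments, with 1 testis-only segment, and the window from 145000001 to 146000000 held 58 among 85, with 3. In the first of these, open chromatin covered 102 kb in the ovary and 62.8 kb in the testis, and in the second 75.6 and 39.0 kb. The broader states were alike there: states 1 and 2 together covered 31.4% in the ovary and 31.3% in the testis of the first window. States 4 and 5 covered 57.3% of it in both gonads.

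On chromosome 1, the window from 85000001 to 86000000 held 43 ovary-only segments among 93 and no testis-only segment, with 111 kb open in the ovary and 85.2 kb in the testis. States 4 and 5 covered 73.2% and 73.1% of it. On chromosome 5, the window from 15000001 to 16000000 held 36 among 86, with 69.8 kb open in the ovary and 50.2 kb in the testis, and states 4 and 5 covered 14.6% and 12.8%.

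The window of chromosome 13 from 12000001 to 13000000 held 40 ovary-only segments among 62, with 56.0 kb open in the ovary and 20.8 kb in the testis. States 4 and 5 covered 12.9% and 11.8% of it, beside 11.8% and 11.5% in windows outside the dense 23. Most of its segments belonged to a block of 147000 bp, from 12888001 to 13035000, in which every ovary bin was state 1 or 2. It was the second longest of 106516 such blocks in the ovary. It held 37 ovary-only segments among 55 open ones, and open chromatin covered 71.4 kb of it in the ovary and 20.6 kb in the testis. The testis was in state 1 or 2 over 100% of the block, with 23 open segments.

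Most blocks held a single ovary-only segment. Of 5448 ovary blocks with an ovary-only segment, 5048 held exactly 1, 400 held 2 or more and 44 held 5 or more. No open testis bin was present in 170 of those 400 and in 10 of those 44. On chromosome 3, a block of 128800 bp from 105940401 to 106069200 held 15 open ovary segments, which covered 6.20 kb, and 0 open testis segments. The testis was in state 2 over 99.2% of that block, in a run of 127800 bp. Neither 1 Mb window over it reached 15 ovary-only segments. On chromosome 7, neighbouring blocks at 46503001 to 46546800 and 46552201 to 46570000 held 14 and 10 ovary-only segments among 16 and 11 open ones, and 2 and 1 open testis segments. These blocks were named after their counts were seen.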

How the data were processed

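Mouse ovary and testis were each represented by 1 segmentation deposited by the authors. Per the file headers, states were assigned with EpiCSeg, a hidden Markov model for read counts in bins. Its settings, and whether both gonads shared 1 model, are not given in the sources used here. STAR 2.6.1d and mm9 stand in the submitters' processing notes, without a role. Chromosome ends fit mm9 to the last whole bin of 200 bp, and 15 of 12361703 autosomal bins carried no state in either file. State numbers are labels without a measured scale of openness. Their order was read from the state boundaries and colours, and the depth is unknown. The 6 samples in the labels are moles and were not used.

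Open segments, overlaps, distances and blocks were computed from state runs on 19 autosomes (Python 3.11.15, NumPy 2.4.6, SciPy 1.17.1), and positions are 1-based. Shares carry Wilson 95% intervals. No test between gonads was possible. The computation was checked on simulated data: of 2940 segments placed without a counterpart among 8528, 100% were recovered. The simulated segments were well apart and free of noise, so this checks the code and not the calls in these data. Regions named are the 10 longest segments, the first 10 in testis state 4 or 5 by length and genome order, the 5 fullest 1 Mb windows, the chromosomes with the highest and lowest share, and those said to be chosen after their values were seen. The members and lists were chosen with earlier results of these data known. The planned gene, promoter and motif measures were not run. The second rarest state proved to be state 4, so alternatives with states 1 and 2 were added after seeing the data.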

Additional observations from a re-analysis of the deposited data

Results flagged for a closer look

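The X chromosome lies outside the autosomal comparison and also held open segments in both gonads. Under the same rule, 307 of its 604 open ovary segments had no open testis bin, or 50.8%, against 35.4% on the autosomes. Of these 307, 178 had no testis state 2 bin, against 1844 of 6218 on the autosomes. Of 427 open testis segments on it, 139 had no open ovary bin, or 32.6%, against 33.0% on the autosomes. State 2 covered 4.16% of the X chromosome in the ovary and 0.540% in the testis, and state 3 covered 71.5% and 10.3%. The number of X copies differs between the gonads and cannot be told apart from openness in these values.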

How the results depend on the processing

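Of 108 values recomputed under 9 other settings, 54 stayed within the limits set (1.5 times a count, or the 95% interval of a share) and 54 moved. No paired analysis was possible because each mouse gonad has 1 segmentation and no values per sample, and for the same reason no replicate could be left out. The number of ovary-only segments, 6218, moved most with the definition of open. With the 2 rarest states (1 and 4) open in both files it was 37121 (41.0% of open ovary segments), with states 1 and 2 it was 44555 (41.8%), and with states 1 and 2 open in the testis alone it was 1844 (10.5%). It was 1232 (11.2%) with segments of at least 400 bp. The share was 32.0% with no open testis bin allowed within 1 kb, and 34.1% without windows of 15 or more. The 1844 segments with no testis state 2 bin became 44 with segments of at least 400 bp, 32348 with the 2 rarest states open and 44555 with states 1 and 2 open, where no other segment can remain by construction. The 5511 testis-only segments became 31391 with the 2 rarest states and 44775 with states 1 and 2 open in both files, and 72124 and 88579 with those pairs open in the testis alone, which adds segments on the testis side only. Joining segments at most 400 bp apart, or using all chromosomes, kept each of these values within its limits. An unknown depth in either gonad limits the reading of segments of 200 bp, and alternatives on genes were not run.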
